A study of Mus musculus with 4 samples.

Results

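The genes described here encode lysosomal enzymes, subunits of the lysosomal proton pump and lysosomal membrane proteins. They were chosen by name, as the array probes whose gene symbol is on a list of 28 symbols. Of the 28 symbols, 27 are on the array, among 30204 gene names. The remaining symbol, Tfeb, is carried there under its older name Tcfeb and is given apart from the others. By role the list holds 6 proteases, 7 hydrolases of glycans and glycosaminoglycans, 4 lipid hydrolases and their helpers, 5 proton pump proteins, 5 membrane proteins and the regulator Tfeb.

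The data are RNA measurements from the livers of male C57BL/6J mice on a high-fat diet, for 24 weeks per the labels, on 4 one-color Agilent arrays. Drp1LiKO mice carry the Alb-Cre transgene with Drp1 flox/flox alleles, and their Drp1 flox/flox littermates without Cre are the controls (Cont). The albumin promoter drives Cre, so the deletion is directed at hepatocytes. One liver of each genotype was taken after a fast of 17 h and 4 h of refeeding per the labels. The study's methods give a slightly shorter fast. The other liver of each genotype has no feeding state in its label, is read as fasted from the study's methods, and is called non-refed here. The labels give no ages. No condition has a replicate array, so the spread between animals of 1 condition was not measured.

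Lysosomes are acidic organelles that digest proteins, glycans, glycogen and lipids delivered by endocytosis and autophagy. A proton pump in their membrane, the V-ATPase, keeps the lumen acidic, which the hydrolases need, while heavily glycosylated membrane proteins line the inner surface and channels and carriers export the products. In liver both hepatocytes and Kupffer cells, the resident macrophages, are rich in lysosomes, and the transcription factor TFEB is known for switching on many lysosomal genes, with a site that contains the letters CACGTG.

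Each gene is given as its signal in multiples of the 75th percentile of the same array, and differences are on the log2 scale. That percentile was 461 in the non-refed Cont liver, 722 in the non-refed Drp1LiKO liver, 357 in the refed Cont liver and 526 in the refed Drp1LiKO liver. A spot that the scanner software calls well above background is called detected here, and the share of detected gene spots was 51.4%, 58.2%, 48.7% and 55.4% in the same order, and 0 spots were saturated. The Drp1LiKO array of each pair was therefore the brighter one and had more detected spots. Probes bind with different strength, so one gene's level cannot be set against another's. Of the listed genes, 26 were read from a probe free of repeated sequence, and 25 of these were detected on all 4 arrays. The exception among the 26 was Atp6v0d2, which was detected on 3.

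The targeted gene, Dnm1l, which encodes the mitochondrial fission protein Drp1, has 1 probe, at chr16:16312331-16312390 of the mm9 build. Its signal was 2.03 and 1.75 in the non-refed Cont and Drp1LiKO livers, and 1.58 and 1.46 in the refed ones. The log2 differences between genotypes were -0.21 and -0.12. Where the probe lies relative to the deleted part of the gene is not given in the sources used here, so this probe does not check the genotype labels. The tissue label was checked with hepatocyte markers, and 8 of 8 were detected on all 4 arrays.

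Markers of the feeding state were read in the same way. Of 8 genes known to be high in the fasted liver, refeeding went with a value at least 2-fold lower for 3 in Cont, where G6pc was at least 2-fold higher, and for 6 in Drp1LiKO. Of 7 measured genes known to be high in the fed liver, 3 were at least 2-fold higher after refeeding in Cont and 6 in Drp1LiKO. Of all genes detected on all 4 arrays, 2.37% were at least 2-fold lower and 1.61% higher after refeeding in Cont. In Drp1LiKO the shares were 3.08% and 2.9%. The Drp1LiKO pair thus crossed the 2-fold line for more of these markers than the Cont pair.

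**Figure D1:**
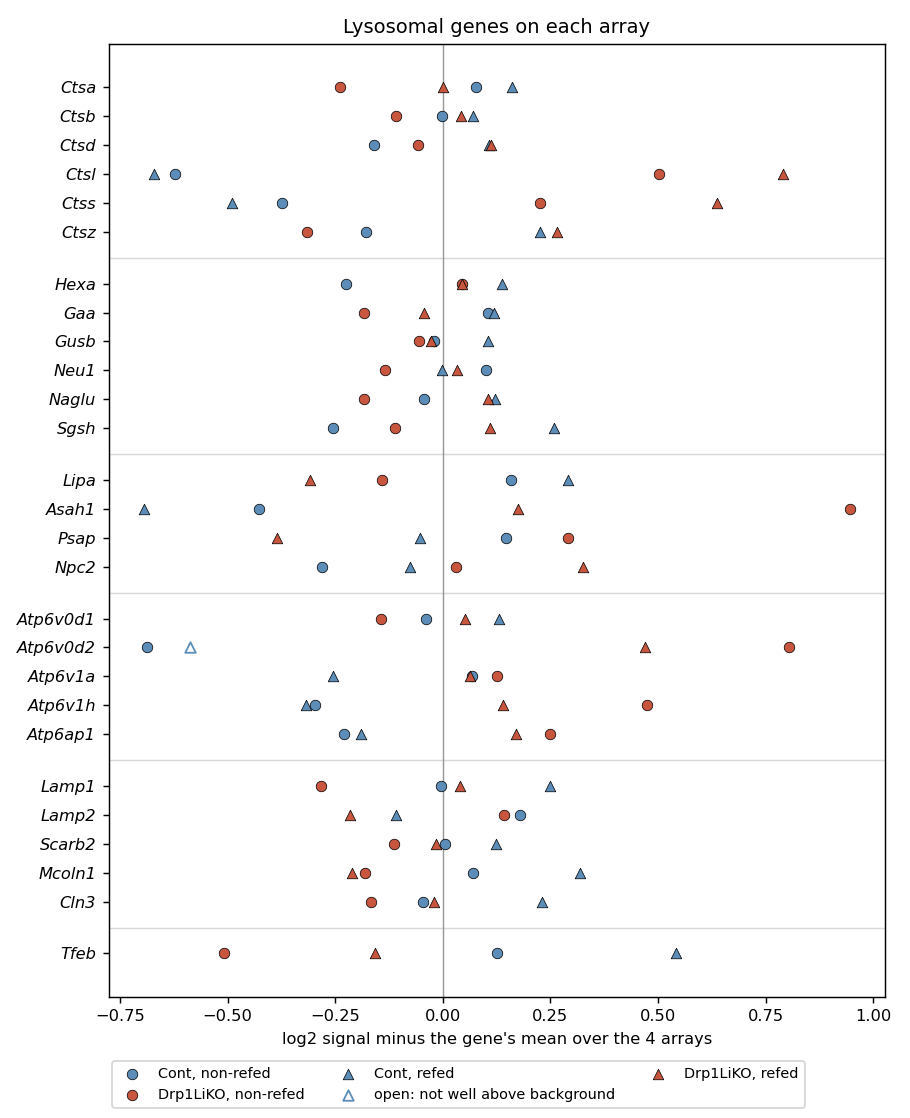
Signal of each listed gene on each of the 4 arrays, as the log2 signal minus the gene's mean over the arrays. Circles are non-refed and triangles refed livers, blue is Cont and red Drp1LiKO, and an open symbol is a signal not well above background. The red points of Ctsl, Ctss, Asah1 and Atp6v0d2 lie to the right of the blue ones, while those of Tfeb lie to the left.

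The first question is how the list differed between Drp1LiKO and Cont livers within each feeding state. As a group it hardly differed. The median log2 difference over the 26 genes was -0.04 in the non-refed livers, beside -0.08 over the 18685 genes detected on 1 array or more. In the refed livers it was -0.05, beside -0.06 over all genes. For the non-refed livers quantile normalization gave a positive median of 0.17, beside 0.0049 over all genes. The authors' values gave 0.16, beside 0.0036. How far the list lay from all genes in the non-refed livers thus depended on the scaling. Of the 26 genes, 21 differed by less than 1.5-fold in the non-refed livers and 21 in the refed livers.

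At a difference of at least 2-fold with the brighter signal detected, 3 of 26 genes were higher in the non-refed Drp1LiKO liver (Asah1, Atp6v0d2 and Ctsl), beside 7.74% of all genes. None of the 26 was lower, a count of 0 beside 4.81% of all genes. In the refed livers 3 were higher (Atp6v0d2, Ctsl and Ctss), beside 7.49%, and 0 were lower, beside 5.89%. With the median over a gene's probes 1 gene was lower in each pair, Atp6v0d2 and Mcoln1 in turn. The refed Cont signal of Atp6v0d2 was close to background, and only Ctsl and Ctss passed 2-fold with that signal at its bound. Among the 25 genes detected on all 4 arrays, 2 were higher in the non-refed Drp1LiKO liver, beside 2.78% of the 14198 genes that pass that filter, and 0 were lower, beside 3.14%. The refed pair gave 2 higher, beside 3.18%, and 0 lower, beside 4.05%. These are small counts, and the list was described by them with no test of the list itself.

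The 2 genotype comparisons share no array. Of the 25 genes detected throughout, 20 (80%) had the same sign in both, beside 10607 of 14198 genes (74.7%). A pair of values with the same sign was therefore common on these arrays.

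The test used across genes is an additive limma fit with genotype and feeding state. It leaves 1 residual degree of freedom and was fitted to the 14198 genes, and its SEs come from how far the 4 livers depart from that model, pooled in part over genes. At a Benjamini-Hochberg adjusted p under 0.05 it called 2 of the 25 genes higher in Drp1LiKO, Ctsl and Asah1, beside 3.05% of all genes, and 0 lower, beside 4.69%. At an unadjusted p under 0.05 stood 6 of the 25 and 4719 of all genes. Over all genes limma called 433 higher and 666 lower, but 8 higher and 3 lower after quantile normalization, and 13 and 10 from the authors' table. With the other 3 choices that ended the calls of Ctsl and Asah1, it called 27 higher and 17 lower from the median over a gene's probes, and 0 of either when genes detected on 2 arrays were admitted or when feeding state was left out. Each genotype call by limma given here, for the lists and markers too, belongs to that one fit.

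**Figure D2:**
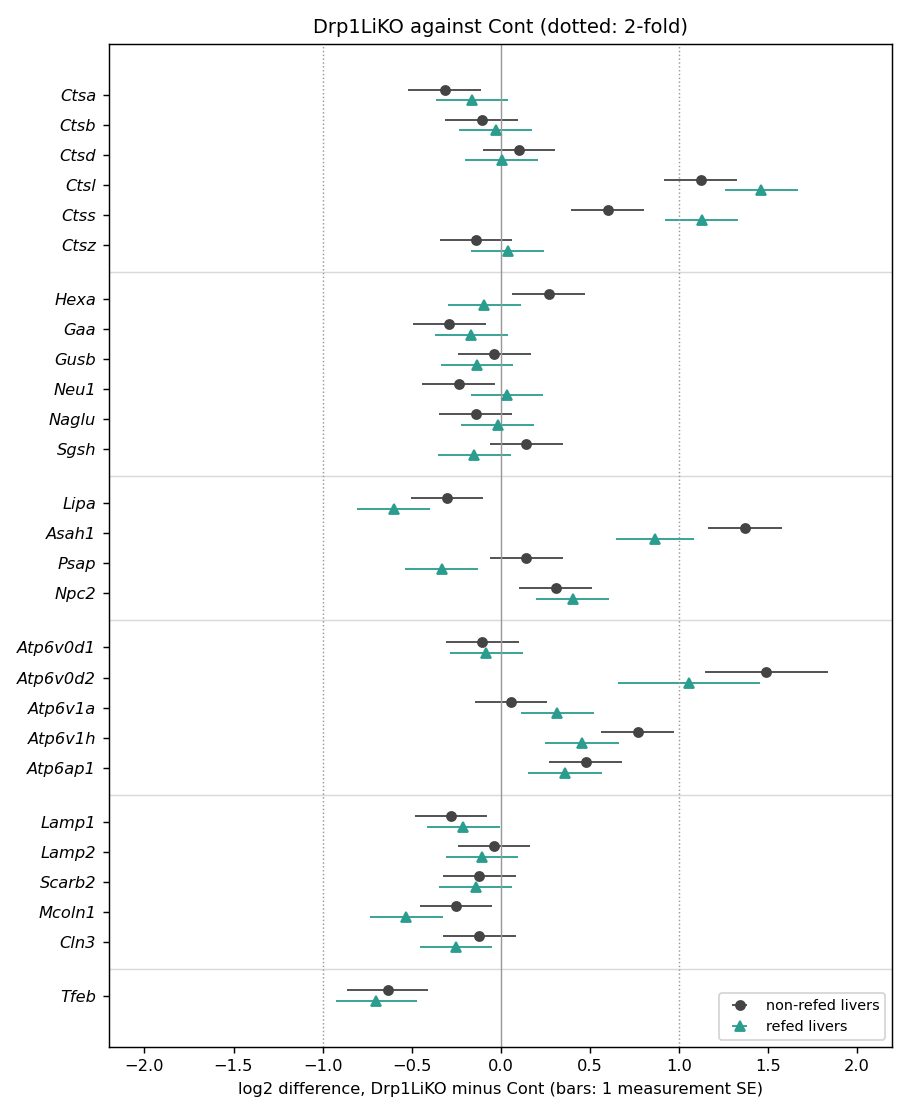
Log2 difference between Drp1LiKO and Cont for each listed gene in the non-refed livers (circles) and refed livers (triangles), with bars of 1 measurement SE from the scanner's error model and dotted lines at 2-fold. Ctsl at 1.12 and 1.46 lies beyond the dotted line in both pairs, and most genes lie within 1.5-fold of 0.

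The proteases held the gene with the clearest difference. Ctsl encodes cathepsin L, a cysteine protease that degrades proteins taken up by endocytosis and autophagy, and its single probe lies at chr13:64465287-64465346 (mm9). Its signal was 77.2 in the non-refed Cont liver and 168 in the non-refed Drp1LiKO liver, and 74.6 and 206 in the refed livers. Both Drp1LiKO livers were above both Cont livers, and the Cont livers were close to each other. Ctsl was 2.18-fold higher in the non-refed and 2.76-fold higher in the refed Drp1LiKO liver, log2 differences of 1.12 and 1.46 with a measurement SE of 0.20 each. The scanner's error model behind that SE covers the array, not the animals. In limma Ctsl rose by 1.29 with genotype (SE 0.16, adjusted p = 0.0361), higher in both of the 2 pairs. The adjusted p lay between 0.0024 and 0.202 over the alternatives, and it was over 0.05 with quantile normalization (0.0635), the authors' table (0.0614), the median over probes (0.078), a filter of 2 arrays (0.101) and a model without feeding state (0.202).

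Ctss encodes cathepsin S, a cysteine protease of antigen-presenting cells that trims the invariant chain of class II molecules, and it is read at chr3:95360245-95360304 (mm9). Its signal was 8.75 and 13.3 in the non-refed Cont and Drp1LiKO livers, and 8.07 and 17.6 in the refed ones. The order was as for Ctsl, with both Drp1LiKO livers on top. The log2 differences were 0.60 and 1.13 (SE 0.20 each), which are 1.52-fold and 2.19-fold, and limma gave an adjusted p of 0.0563. The difference between these 2 differences was 0.53, with an SE of 0.29 from the error model, and it was not tested.

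The other 4 proteases were Ctsa, Ctsb, Ctsd and Ctsz, of which cathepsin D is the aspartic protease of lysosomes and cathepsin Z a carboxypeptidase. Their genotype differences ran from -0.32 (Ctsa) to 0.10 (Ctsd) in the non-refed livers and from -0.16 (Ctsa) to 0.04 (Ctsz) in the refed livers. All 4 stayed within 2 measurement SEs of 0 in both pairs with the probe used. With these probes Ctsl and Ctss stood apart from the other 4. A second detected probe of Ctsd gave 0.64 and 0.41, beyond 2 SEs in both pairs and above Ctss in the non-refed livers, and one of Ctsa gave 0.13 and -0.94, so that this rested on the probes.

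Some markers of macrophages were higher in Drp1LiKO livers. Whole liver RNA mixes cell types, and more cells of a type cannot be told apart from more RNA per cell. Of 13 markers of macrophages and Kupffer cells, 13 were detected on every array. In the non-refed livers 10 of the 13 had a genotype difference above 0, C1qc at 0.01 among them. Clec4f at -0.16, Csf1r at -0.35 and Timd4 at -0.42 were below, and in the refed livers 13 were above. The median difference was 0.17 in the non-refed livers and 0.57 in the refed livers. The measurement SE of single markers, near 0.20, does not give the error of a median over 13, which was not measured. At least 2-fold higher were 2 and 4 markers, beside 2.78% and 3.18% of the genes detected on all 4 arrays, and limma called 3 of the 13 higher, Marco, Lyz2 and Mpeg1, beside 3.05%. The summed signal of the 13 was 119 and 140 in the non-refed Cont and Drp1LiKO livers and 132 and 231 in the refed livers. Cd5l had the brightest probe. Probes bind with different strength, so a sum mostly follows its brightest probes, here and in the marker lists below.

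Markers known from lipid-associated macrophages had larger median differences, and the lists were not compared by a test. Of 6, 6 were past 2-fold in the non-refed livers by their signals, with a median of 1.90. Beside this stand 7.74% of the genes detected on 1 array or more. Mmp12 was not well above background in the non-refed Cont liver, and with its signal there at the lowest level well above background it was at least 1.75-fold higher, the count was 5 and the median 1.28. With dim signals at their bounds, 775 of 18685 genes were at least 2-fold higher in the non-refed Drp1LiKO liver. In the refed livers 3 of 6 were at least 2-fold higher, beside 7.49% of the genes detected on 1 array or more, with a median of 0.98. The lipid receptor Trem2 was at 0.369 and 1.99 in the non-refed Cont and Drp1LiKO livers and at 0.755 and 2.36 in the refed livers. Limma called 4 of the 4 tested markers higher, Trem2, Cd9, Spp1 and Itgax, beside 3.05% of all genes. Summed signals were 2.21, 6.37, 2.32 and 5.30 for non-refed Cont and Drp1LiKO and refed Cont and Drp1LiKO, with Cd9 the brightest probe, and 5, 6, 4 and 5 of the 6 were detected. Some macrophage markers were thus higher in the same livers as Ctsl, Ctss and Asah1, and their part in those results was not tested.

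Hepatocyte markers gave a median genotype difference of -0.24 in the non-refed and -0.32 in the refed livers. In each pair 1 of 8 was at least 2-fold higher (Tat and Cps1 in turn), beside 2.78% and 3.18% of the genes detected on all 4 arrays. Limma called 1 higher, Tat, beside 3.05%. With quantile normalization the non-refed median was 0.14, so its direction depended on the scaling. The summed signals of the 8 were 2592, 1862, 3114 and 2262 in the order used above, and Serpina1a and Alb had the brightest probes.

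The hydrolases of glycans and glycosaminoglycans are Hexa, Gla, Gaa, Gusb, Neu1, Naglu and Sgsh. They include the glycogen-digesting Gaa, the sialidase Neu1, and Naglu and Sgsh, which act in the breakdown of heparan sulfate. For the 6 that were measured, the median genotype difference was -0.09 in the non-refed and -0.11 in the refed livers. The values ran from -0.29 (Gaa) to 0.27 (Hexa) and from -0.16 (Gaa) to 0.04 (Neu1). With the probe used, all 6 lay within 2 measurement SEs of 0 in both pairs, and 0 were called by limma, where 0 also had an unadjusted p under 0.05. A second probe of Gaa gave 0.53 (SE 0.22) in the non-refed livers, beyond 2 SEs.

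The seventh, Gla, encodes alpha-galactosidase A and was left out because its only probe holds a stretch found in the promoters of 24 genes. That probe gave genotype differences of -0.39 and -0.19. The brighter of the probes for Sgsh was left out as well, for a stretch found in the promoters of 73 genes. These stretches are the reason why the probes were left out, the second being a simple repeat. Whether RNA of other genes binds to these probes was not tested.
Gla: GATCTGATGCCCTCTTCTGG
Sgsh: TGTGTGTGTGTGTGTGTGTG

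Among the lipid hydrolases and their helpers, Asah1 was the one called at 2-fold and by limma. It encodes acid ceramidase, which splits ceramide into sphingosine and a fatty acid, and its probe lies at chr8:42426681-42426740 (mm9). Its signal was 0.412 and 1.07 in the non-refed Cont and Drp1LiKO livers and 0.342 and 0.625 in the refed ones. Both Drp1LiKO livers were above both Cont livers, with the non-refed Drp1LiKO liver highest. The gene was 2.59-fold higher in the non-refed and 1.83-fold higher in the refed Drp1LiKO liver, log2 differences of 1.37 (SE 0.21) and 0.87 (SE 0.22). A second probe, at chr8:42432286-42432345, gave 1.18 and 0.71. In limma Asah1 rose by 1.12 with genotype (SE 0.18, adjusted p = 0.0403), higher in both of the 2 pairs. Over the alternatives that p lay between 0.00452 and 0.287, and it was over 0.05 under the same 5 as for Ctsl.

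The other 3 genes of this group were Lipa, Psap and Npc2. Lipa encodes the acid lipase that cleaves cholesteryl esters and triglycerides in lysosomes, Psap the precursor of the saposins that present lipids to hydrolases, and Npc2 a cholesterol carrier of the lumen. Lipa gave -0.30 in the non-refed and -0.60 in the refed livers (SE 0.20 each), the second beyond 2 SEs and 1.5-fold. Npc2 gave 0.31 and 0.40. The values of Psap were 0.15 and -0.33. None of these 3 passed limma, where Lipa had a p of 0.034 before and 0.122 after adjustment. The group was thus mixed, with Asah1 and Lipa on opposite sides of 0.

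Of the proton pump genes, most had a positive genotype difference. Atp6v0d1 and Atp6v0d2 encode alternative forms of subunit d of the membrane sector, the first found widely and the second known from osteoclasts and macrophages. Atp6v1a and Atp6v1h encode subunits of the cytosolic sector that hydrolyzes ATP, and Atp6ap1 an accessory protein. The median difference of the 5 was 0.48 in the non-refed and 0.36 in the refed livers, and 4 of 5 were above 0 in each pair with the probes used. Without Atp6v0d2, whose direction rested on the probe, the medians were 0.27 and 0.34.

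Atp6v0d1 had signals of 7.82 and 7.28 in the non-refed Cont and Drp1LiKO livers and 8.80 and 8.33 in the refed ones. Its genotype differences of -0.10 and -0.08 were within 1 measurement SE of 0, and their sign turned with quantile normalization. Atp6v0d2, read at chr4:19805367-19805426 (mm9), had signals of 0.0732 and 0.206 in the non-refed and 0.0784 and 0.163 in the refed livers, the refed Cont value being not well above background and so a bound. The difference was 1.49 (SE 0.35) in the non-refed livers, and the refed Drp1LiKO liver was at least 1.91-fold higher, with the Cont signal raised to the lowest one well above background on its array.

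For Atp6v0d2 the direction rested on the probe. A second probe, at chr4:19804304-19804363, was detected only in the non-refed Cont liver, at 0.285, so that by this probe the non-refed Drp1LiKO liver was at least 7.73-fold lower. The median over both probes was -1.11 in the non-refed livers. The call of Atp6v0d2 was also lost with normexp background correction, in both pairs. The arrays thus gave no settled direction for Atp6v0d2.

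The other 3 pump genes ran from 0.06 (Atp6v1a) to 0.77 (Atp6v1h) in the non-refed and from 0.32 (Atp6v1a) to 0.46 (Atp6v1h) in the refed livers. Atp6ap1 gave 0.48 and 0.36, and its second probe 0.67 and 0.52. The adjusted p in limma was 0.0727 for Atp6v1h and 0.119 for Atp6ap1, so neither passed.

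The membrane proteins were Lamp1 and Lamp2, which make up much of the glycoprotein coat of the inner surface, Scarb2, which carries glucocerebrosidase to lysosomes, the calcium channel Mcoln1, and Cln3, a protein lost in juvenile Batten disease. Lamp1 had signals of 123 and 102 in the non-refed Cont and Drp1LiKO livers and 147 and 127 in the refed ones. Its genotype differences were -0.28 and -0.21 (SE 0.20 each), with an adjusted p of 0.286 in limma. The other 4 ran from -0.25 (Mcoln1) to -0.04 (Lamp2) and from -0.53 (Mcoln1) to -0.11 (Lamp2). The median of the 5 was -0.12 in the non-refed and -0.21 in the refed livers, and 0 of 5 were above 0 in either pair. That shared sign depended on the processing, since over 7 settings Lamp1 ran from -0.34 to 0.05, Lamp2 from -0.09 to 0.22, Scarb2 from -0.18 to 0.02 and Mcoln1 from -0.31 to 0.21 in the non-refed livers.

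The regulator Tfeb (Tcfeb on the array) was lower in Drp1LiKO in both pairs. Its signal was 0.271 and 0.174 in the non-refed Cont and Drp1LiKO livers, and 0.361 and 0.222 in the refed ones. The log2 differences were -0.64 and -0.70 (SE 0.23 each), with an adjusted p of 0.0556 in limma, so Tfeb did not pass the test. Its sign was the same under all 7 settings, over which it ran from -0.69 to -0.33 in the non-refed and from -0.81 to -0.65 in the refed livers. A second probe was detected on none of the arrays.

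The promoters of the listed genes were read from RefSeq, on GRCm38.p6, as windows of 300 bases that start 250 bases before the transcript start. The table holds 24 of the 28 genes with 29 windows, and lacks Ctsb, Asah1, Atp6v0d2 and Atp6v1h. They were searched on both strands for CACGTG, the core that TFEB and many other factors recognize, and for GTCACGTG, a longer form that contains the first and belongs to the lysosomal gene element called CLEAR. CACGTG was in the window of 12 of the 24 genes (50%), beside 8.09% of the 27025 genes of the table. GTCACGTG was in 9 of the 24 (37.5%), beside 2.55%. These letters are thus common in the promoters of the list.

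Of the genes called at 2-fold or by limma, Ctsl and Ctss have a window without GTCACGTG, and Asah1 and Atp6v0d2 have no window. The 8 measured genes with GTCACGTG are Ctsa, Ctsd, Naglu, Sgsh, Atp6v0d1, Lamp1, Mcoln1 and Cln3, and their median genotype difference was -0.13 in the non-refed and -0.15 in the refed livers. They ran from -0.32 to 0.14 and from -0.53 to 0.01. The 15 genes of the table without it, Tfeb among them, had medians of -0.03 and -0.09 and ran from -0.64 to 1.12 and from -0.70 to 1.46, the values of Tfeb and Ctsl. The window of Ctsl holds CACGTG at position -236 from the start, without the longer form, and that of Ctss holds neither. Nothing about the binding of a factor follows from letters in a window.

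Shown are the 4 promoters with GTCACGTG whose genes had the largest average genotype difference, all of them negative in the average: -0.39 for Mcoln1, -0.24 for Lamp1, -0.24 for Ctsa and -0.19 for Cln3. Each runs 5′ to 3′ along the gene's own strand and ends at or before the transcript start, except that of Ctsa, which is the stretch around its first match. Capitals mark GTCACGTG or its reverse complement, and CACGTG where it stands alone. They lie at chr8:3500269-3500518 (plus strand), chr8:13158911-13159160 (plus strand), chr2:164833748-164833777 (plus strand) and chr7:126583237-126583486 (minus strand) of GRCm38.p6.
Mcoln1: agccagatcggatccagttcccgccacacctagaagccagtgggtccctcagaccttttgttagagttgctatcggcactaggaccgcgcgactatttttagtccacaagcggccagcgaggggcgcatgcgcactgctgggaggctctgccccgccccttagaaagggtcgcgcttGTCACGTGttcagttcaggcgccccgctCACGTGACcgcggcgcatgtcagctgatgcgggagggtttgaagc
Lamp1: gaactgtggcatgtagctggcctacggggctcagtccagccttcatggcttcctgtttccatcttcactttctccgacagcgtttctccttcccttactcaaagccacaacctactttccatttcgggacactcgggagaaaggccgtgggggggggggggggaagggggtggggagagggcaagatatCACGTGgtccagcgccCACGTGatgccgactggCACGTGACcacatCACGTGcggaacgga
Ctsa: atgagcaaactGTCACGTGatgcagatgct
Cln3: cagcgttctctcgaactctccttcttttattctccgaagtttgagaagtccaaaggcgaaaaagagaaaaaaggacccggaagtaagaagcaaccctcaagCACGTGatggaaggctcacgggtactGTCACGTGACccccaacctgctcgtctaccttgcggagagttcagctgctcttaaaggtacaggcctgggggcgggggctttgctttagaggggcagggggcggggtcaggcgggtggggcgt
Mcoln1 has the longer form at positions -73 and -45 from the start, and Lamp1 has CACGTG at 4 places, with the longer form at -28.

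Several listed genes have more than 1 probe, and 12 of the 27 under their symbol do so, while the 27 together have 41 probes. Probes of the same gene gave like values for Asah1, Atp6v1a, Atp6ap1 and Lamp2. They did not for Ctsd, where the probe used gave 0.10 and 0.01, and for Ctsa, where it gave -0.32 and -0.16. For Gaa a second detected probe gave 0.53 and 0.14, against -0.29 and -0.16.

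**Figure D3:**
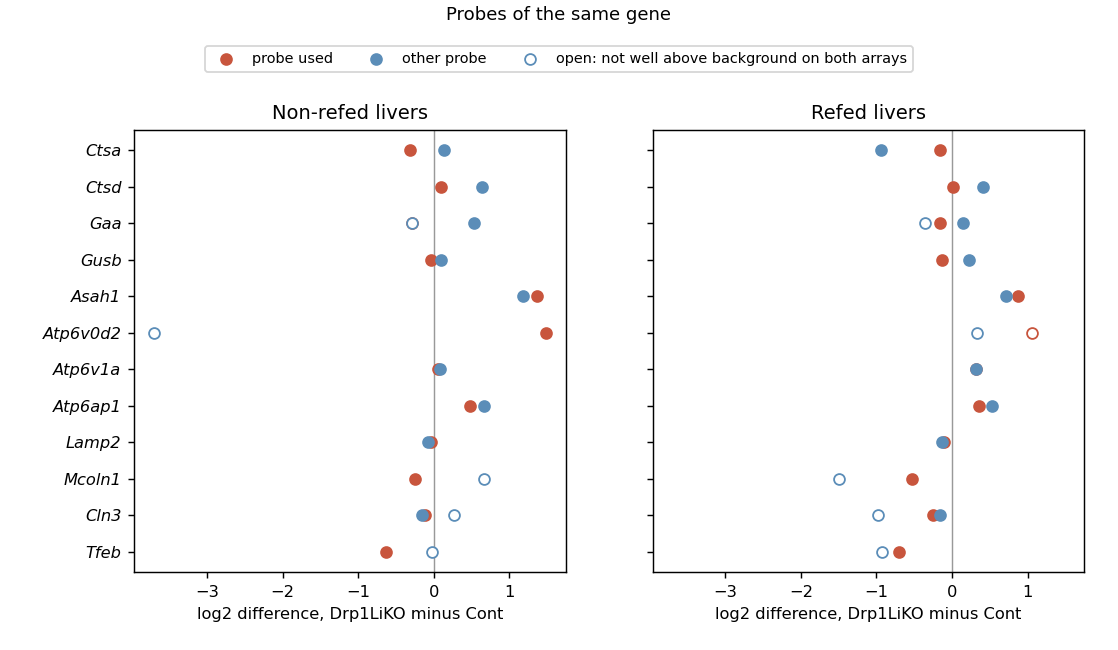
Log2 difference between Drp1LiKO and Cont for every probe free of repeats of the genes with several such probes, with the probe used in red and the others in blue. Open symbols are probes not detected on both arrays of the pair. The probes of Asah1 lie together, at 1.37 and 1.18 in the non-refed livers, and those of Atp6v0d2 lie on opposite sides of 0, the one on the left with a Drp1LiKO signal not well above background.

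The second question is how the list differed between refed and non-refed livers of each genotype. These comparisons use the same 4 arrays as the genotype comparisons. The median difference of the 26 genes was 0.11 in Cont livers, beside 0.11 over all genes, and 0.14 in Drp1LiKO livers, beside 0.08. With quantile normalization the medians of the list were 0.01 and -0.16, so the direction in Drp1LiKO livers depended on the scaling. The list as a group thus showed no shift apart from that of all genes that held across the scalings.

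At 2-fold, 0 of the 26 genes were higher in the refed Cont liver, beside 3.9% of all genes, and 0 were lower, beside 5.04%. For Drp1LiKO 0 were higher, beside 5.5%, and 0 were lower, beside 7.01%. With the median over a gene's probes 1 was lower in each genotype, Atp6v0d2 and Mcoln1 in turn. Among the 25 genes detected on all 4 arrays the counts were also 0, beside 1.61% higher and 2.37% lower in Cont livers and 2.9% higher and 3.08% lower in Drp1LiKO livers. Limma called 0 of 25 higher with refeeding, beside 0.0352% of all genes, and 0 lower, beside 0.0493%, where 2 of the 25 and 4699 of all genes had an unadjusted p under 0.05. Over all genes limma called 5 higher and 7 lower with refeeding, but 1036 higher and 697 lower with scaling to the array median, which still gave 0 of the listed genes. Of the 26 genes, 26 differed by less than 1.5-fold in Cont livers and 24 in Drp1LiKO livers.

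**Figure D4:**
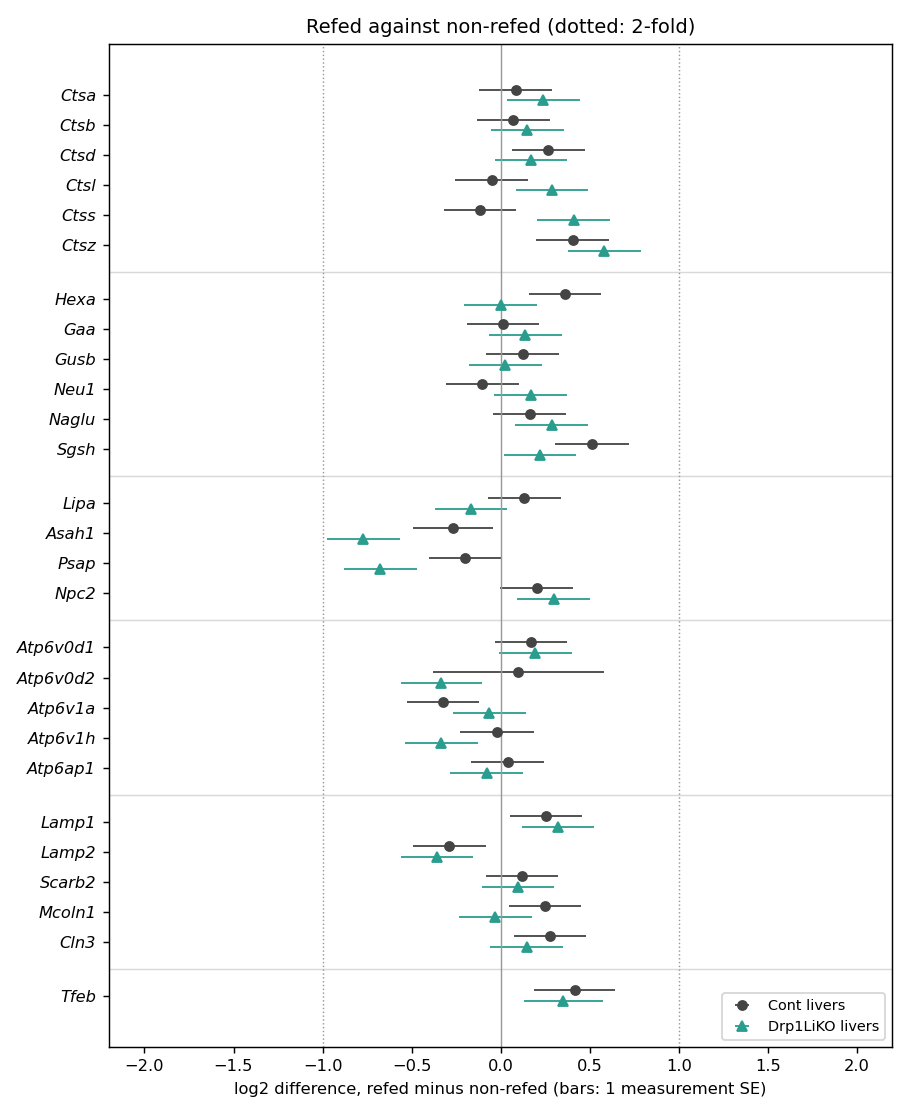
Log2 difference between refed and non-refed livers for each listed gene in Cont (circles) and Drp1LiKO (triangles), with bars of 1 measurement SE and dotted lines at 2-fold. No point lies beyond 2-fold, and the lowest are Asah1 at -0.77 and Psap at -0.68 in Drp1LiKO livers.

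The refeeding differences of single genes were small. In Cont livers they ran from -0.32 (Atp6v1a) to 0.51 (Sgsh), and 25 of 26 lay within 2 measurement SEs of 0. In Drp1LiKO livers they ran from -0.77 (Asah1) to 0.58 (Ctsz), and 22 of 26 lay within that range. The pair beyond 1.5-fold was Asah1 and Psap, genes of sphingolipid breakdown, at -0.77 and -0.68 in Drp1LiKO and -0.27 and -0.20 in Cont livers. Ctsz gave 0.40 in Cont and 0.58 in Drp1LiKO livers. For Ctsl the values were -0.05 and 0.29, for Ctss -0.12 and 0.41, for Lamp1 0.25 and 0.32, for Atp6v0d1 0.17 and 0.19, and for Tfeb 0.42 and 0.35. Over the 7 settings the sign turned for Lamp1 in both genotypes, with lowest values of -0.08 and -0.19, and in Drp1LiKO livers for Ctsl (-0.14), Atp6v0d1 (-0.02) and Tfeb (-0.09). None of these passed limma.

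Other genes of the lysosome were described in the same way, from 5 lists of genes outside the 28. The lists give the surroundings of the 26 genes rather than results of their own. Their counts at an unadjusted p under 0.05 stand beside 4719 of 14198 genes for genotype and 4699 for refeeding. Their genotype counts at 2-fold stand beside 7.74% of all genes higher and 4.81% lower in the non-refed livers. In the refed livers these shares were 7.49% and 5.89%. Their genotype calls by limma stand beside 3.05% higher and 4.69% lower. Their median genotype differences lay between -0.18 and 0.12.

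Of 39 other hydrolases, 37 were detected on 1 array or more, with a median genotype difference of -0.18 in the non-refed and -0.08 in the refed livers. At 2-fold 1 was higher in each pair, Ctsk at 1.02 and Idua at 1.39, and 0 were lower. Limma called 0 of 36, where 17 had an unadjusted p under 0.05. By average difference the farthest from 0 were Idua, which acts on heparan and dermatan sulfate, at 0.62 and 1.39, Aga at 0.89 and 0.44, Naaa at 0.46 and 0.87, and Ids at -0.65 and -0.64. For Idua the sign turned, to -0.83 and -0.61, when the probe with repeated sequence was kept.

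Of 20 other pump subunits, 16 were measured, with medians of 0.04 in both pairs. Limma called 1 of 14 higher, Atp6v1b2, a subunit of the cytosolic sector, at 1.15 and 0.87 (adjusted p = 0.0394), and 0 lower. In the non-refed livers 1 was at least 2-fold higher, Atp6v1b2, and 1 lower, Atp6v0a4, which was detected only in the Cont liver and was at least 2.10-fold lower in the Drp1LiKO liver. The next by average difference were Atp6v0e2 at 0.70 and 0.44, Atp6v1f at -0.45 and -0.27, and Atp6ap2 at 0.53 and 0.13.

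Among 26 other membrane proteins, 25 were measured, with medians of 0.12 and -0.02. Limma called 1 of 24 lower, Tpcn1, a cation channel of endosomes and lysosomes, and 0 higher. Tpcn1 gave -1.13 and -1.04 (adjusted p = 0.0367). The tetraspanin Cd63 gave 1.35 and 0.70 (adjusted p = 0.0503), Mcoln2 1.20 and 0.08, and Abcb9 -0.45 and -0.62. At 2-fold 2 were higher in the non-refed livers, Cd63 and Mcoln2, and Tpcn1 was lower in both pairs.

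All 12 genes of enzyme sorting were measured, with medians of -0.03 and 0.03. Limma called 1 higher and 1 lower. The first was Cln6, a protein of the endoplasmic reticulum needed for the export of lysosomal enzymes, at 0.89 and 0.66 (adjusted p = 0.0489). The second was the sorting receptor Sort1, at -0.83 and -0.85 (adjusted p = 0.0423), whose median over all its probes was 0.34 and 0.91, so that its sign depended on the probe. Cln8, the partner of Cln6, gave 1.25 and 0.34, the only one past 2-fold, and the adaptor Gga2 gave -0.26 and -0.90.

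Of 20 genes of the TFEB family and its control at the lysosome, 17 were measured, with medians of 0.02 and -0.01, and 0 were past 2-fold. Limma called 0 of 16, where 5 had an unadjusted p under 0.05. The farthest from 0 on average were Lamtor4 at -0.71 and -0.68 and Lamtor2 at -0.49 and -0.34, parts of the complex that anchors mTORC1 to lysosomes, followed by Fnip2 at -0.39 and -0.44 and Rheb at 0.43 and 0.39. Refeeding gave 0 calls by limma in these 5 lists, where 9 of 36 other hydrolases, 4 of 14 pump subunits, 3 of 24 membrane proteins, 1 of 12 sorting genes and 6 of 16 genes of the TFEB family and its control had an unadjusted p under 0.05. At 2-fold Ctso was lower after refeeding in Drp1LiKO livers, at -1.08, beside 7.01% of all genes. Atp6v0a4 crossed that line downward in Cont livers by its signals, but it was not detected in the refed one, and with the signal there at its bound no decrease was left.

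GTCACGTG was in the promoter window of 5 of 9 sorting genes in the table (55.6%), 3 of 20 other membrane proteins (15%), 3 of 28 other hydrolases, 2 of 19 genes of the TFEB family and its control (10.5%) and 1 of 16 other pump subunits (6.25%). The share among the sorting genes and the listed genes was thus the highest of these lists.

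**Figure D5:**
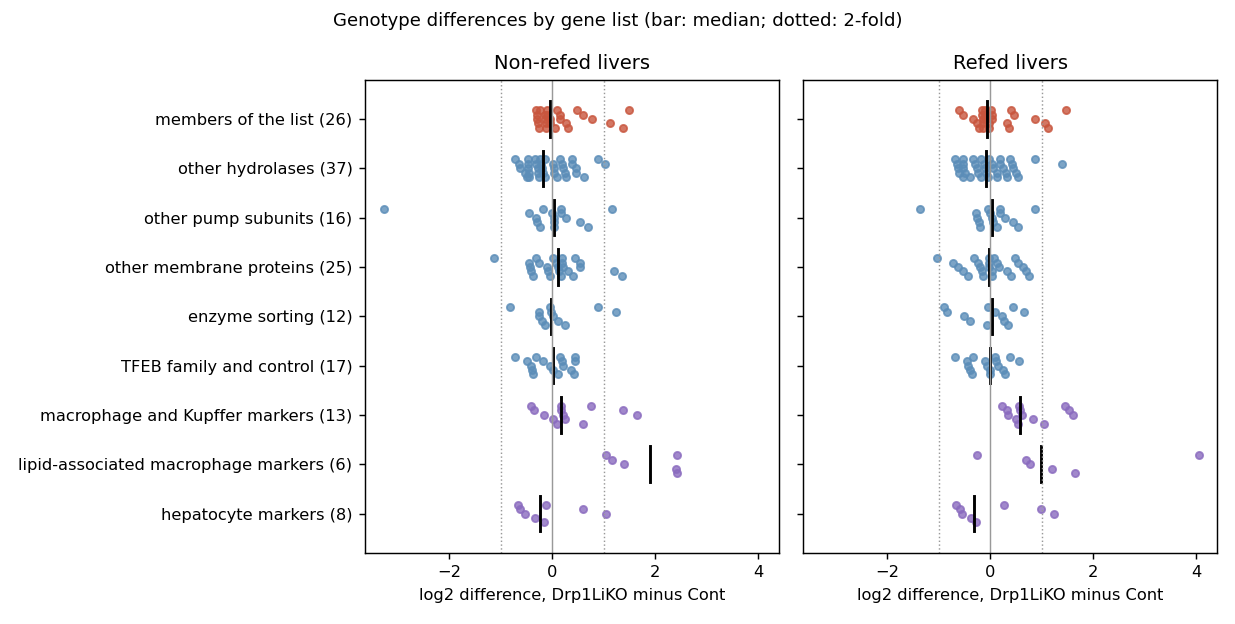
Log2 differences between Drp1LiKO and Cont in the non-refed (left) and refed (right) livers for the listed genes, 5 lists of other lysosomal genes and 3 lists of cell markers, over genes detected on 1 array or more. Points are genes, bars are medians and dotted lines mark 2-fold. The lysosomal medians lie near 0, between -0.18 and 0.12, and that of the lipid-associated macrophage markers lies at 1.90 (1.28 with Mmp12 at its bound) and 0.98.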

How the data were processed

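The values are the processed intensities in the scanner files deposited by the authors, 1 per spot, which Feature Extraction (10.7.1.1 per the file headers, 9.5.1.1 in the submitters' processing notes) background-subtracted within each array and did not normalize between arrays. The authors' table of normalized intensities, used as an alternative, has a median of 39.6 on each array and matched a quantile normalization of the linear signals within 0.000424 on the log2 scale, so it is linear, not centred, and of the same direction. All 4 arrays lie on 1 slide.

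Outlier spots, as Feature Extraction marks them, were not used, which took away 37 of 39429 probes. Repeated spots were averaged, and log2 signals were set relative to the 75th percentile of the array. The median SD of repeated spots lay between 0.0612 and 0.0706. A gene with several probes was read from the probe detected (well above background) on the largest number of arrays, then the brightest. Probes with a stretch of 20 bases found in the promoters of 10 or more genes (291) were dropped, a choice made after the probes had been seen. Tfeb was matched by its older name Tcfeb. Probe positions are those of the files (mm9), and promoters come from RefSeq (GRCm38.p6).

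A gene was called at 2-fold where the brighter signal was well above background. SEs come from the scanner's error model. The limma test (3.58.1, in R 4.3.3) was additive in genotype and feeding state, with Benjamini-Hochberg adjustment over 14198 genes. It treats any interaction as error. It was also run on simulated data, but how often it made false calls there is not reported here. Named are the listed genes called in any comparison, Tfeb, Lamp1 and both forms of subunit d, others by range, and up to 4 genes of each other list by average genotype difference. Ctsk, Atp6v0a4, genes named for a range and genes named for their probes were chosen after their values were seen. The listed genes and all other lists were chosen with earlier results of these data known. Alternatives were scaling to the array median, quantile normalization, normexp (offset 50), the authors' table, the median over probes, other filters, 1.5-fold, other limma models and, added after seeing the data, keeping repeat probes. Python 3.11.15 with numpy 2.4.6, pandas 2.3.3 and matplotlib 3.10.9 was used.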

Additional observations from a re-analysis of the deposited data

Results flagged for a closer look

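For 9 genes of the lists, a pair of conditions gave differences in opposite directions, each beyond 2 measurement SEs, and each pair rests on 1 array per condition, so the difference between them was not tested. Only 1 of these genes is lysosomal. Ctsc, the protease cathepsin C, gave -0.49 after refeeding in Cont and 0.58 in Drp1LiKO livers, which lie 1.06 apart on the log2 scale.

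Among the markers of feeding, G6pc gave 1.38 after refeeding in Cont and -0.74 in Drp1LiKO (a difference of -2.12), and Pck1 gave genotype differences of 0.46 in non-refed and -0.51 in refed livers (-0.97). The neutrophil genes S100a8 and S100a9 gave -1.04 and -1.11 between genotypes in the non-refed livers and 0.94 and 1.04 in the refed livers, differences of 1.98 and 2.15. Other neutrophil genes kept one sign, Retnlg at -1.59 and -0.74, Elane at -0.19 and -0.25 and Ly6g at 0.08 and 0.02.

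Of the genes of stellate cells and fibroblasts, Lrat at 0.84 and 0.60 and Dcn at 0.50 and 0.20 kept one sign between genotypes. Pdgfrb gave 0.80 between genotypes in the non-refed and -0.63 in the refed livers, and Col3a1 1.28 and -0.44. The same arrays read as refeeding gave 0.95 in Cont and -0.47 in Drp1LiKO for Pdgfrb, and 0.80 and -0.92 for Col3a1, so in both readings the differences were -1.43 and -1.72. For refeeding, Col1a1 gave 0.68 and -1.01 (-1.70), and Cidea 2.21 and -0.78 (-2.99).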

How the results depend on the processing

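No paired analysis was possible because each condition has replicate 1 alone, so the groups share only 1 number. Leaving out an array was not possible for the same reason, since it would leave a condition empty. Each value thus stands for 1 liver, scaling decides where 0 lies, and dim signals near background, such as Atp6v0d2, are bounds more than values.

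For the 27 genes, Tfeb included, in 4 comparisons under 6 alternatives, 561 of 648 differences moved by less than their measurement SE, 86 moved further, and 1 changed the sign of a called value. That one was Atp6v0d2 in the non-refed livers, at -1.11 with the median over its probes. Among other genes, Idua in the refed livers came to -0.61 with repeat probes kept. The causes were not tested.

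The median over the list moved with quantile normalization and the authors' table: to 0.17 and 0.16 for genotype in the non-refed livers (all genes 0.00 and 0.00), to 0.0087 and 0.0091 for refeeding in Cont, and to -0.16 and -0.16 for refeeding in Drp1LiKO (all genes 0.03 and 0.03). The refed genotype median ran from -0.08 to 0.04. At 1.5-fold, a lower bar, 5 of 26 genes were higher and 0 lower in the non-refed Drp1LiKO liver, beside 2583 and 2397 of 18685, and 4 higher and 1 lower (Lipa) in the refed one, beside 2574 and 2629. For refeeding in Drp1LiKO 0 were higher and 2 lower, beside 3183 and 2724. The median over probes gave 1 call for refeeding in Cont (Atp6v0d2) and 1 in Drp1LiKO (Mcoln1), both lower, and Mcoln1 was also called lower for genotype in the refed livers, at -1.01. The second Mcoln1 probe was detected on 1 array.

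Limma called 4 of the listed genes for genotype with scaling to the array median (Asah1, Atp6v1h, Ctsl and Ctss), where over all 14198 genes it called 859 higher and 1527 lower. It called 3 (Asah1, Ctsl and Ctss) with normexp, beside 455 and 1011, and the same 3 with an intensity trend, beside 541 and 958. It called 0 with quantile normalization, 0 with the authors' table, 0 with the median over probes, 0 of 16478 genes with a filter of 2 arrays (smallest adjusted p = 0.0624), and 0 without feeding state in the model. At an unadjusted p under 0.05 these 5 gave 6, 6, 6, 6 and 4 of the listed genes. Over all genes tested they gave 4276, 4286, 4345, 4642 and 2060, of 14198, 14198, 14212, 16478 and 14198. For refeeding limma called 0 under all 9 alternatives.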

Other observations

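Markers of other cells were read in the same way, as the median log2 genotype difference in non-refed and refed livers over the markers detected on all 4 arrays. It was -1.04 and 0.02 for 5 neutrophil genes, -0.31 and -0.34 for 3 genes of T and NK cells, 0.30 and 0.13 for 2 of B cells, -0.05 and -0.24 for 5 of endothelial cells, and 0.84 and -0.02 for 5 of stellate cells and fibroblasts. The 1 bile duct gene detected on all 4 arrays, Krt19, gave 0.22 and 0.68. Sox9, detected on 3, was 2.37-fold higher in the non-refed and at least 3.18-fold higher in the refed Drp1LiKO liver. Krt7, detected in neither Cont liver, gave 0.30 and 0.04 by its signals. With markers detected on fewer arrays added, the medians were -0.62 and 0.48 for 6 neutrophil genes (0.05 in the refed livers with Mpo at its bound) and 0.33 and 0.23 for 4 genes of T and NK cells, so the sign of the latter turned with Cd3g, which was detected in neither Cont liver. For 3 B cell genes the median was 0.46 in both pairs (0.26 in the non-refed livers with Ms4a1 at its bound). Limma called Cd3d higher and the endothelial gene Kdr lower with genotype, beside 3.05% and 4.69% of all genes. Other genes of these lists went the other way, as Cd3e at -0.67 and -0.64, Nkg7 at -0.31 and -0.34, Lyve1 at 0.93 and 0.24 and Pecam1 at 0.84 and 0.07. The same fit called 0 genes of the neutrophil, B cell, stellate and bile duct lists. There 1 of each list had an unadjusted p under 0.05, beside 4719 of 14198 genes.

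Of 5 adipocyte markers 2 were measured, Cidea and Cfd, and limma called both lower in Drp1LiKO, beside 4.69% of all genes. Cidea, a lipid droplet protein, was at 4.23 and 0.488 in the non-refed Cont and Drp1LiKO livers and at 19.6 and 0.285 in the refed livers. Cfd was at 4.23 and 0.126, and at 21.8 and 0.282. Adipoq, Plin1 and Lep were detected on none of the arrays. Limma called Thrsp, a marker of feeding, lower with genotype and higher with refeeding.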
